A study of Mus with 6 samples.

Results

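Glucocorticoid-induced target genes are genes whose transcription rises when the stress hormone corticosterone binds its receptors. For this group, 10 such genes were listed by symbol, and a gene was measured where a transcript cluster of the array carried its symbol and no other. Of the 10 genes, 9 were measured, each by 1 cluster, out of 19938 genes with 21789 clusters in all. The 9 genes were Sgk1, Map3k6, Pdk4, Tsc22d3, Zbtb16, Hif3a, Ddit4, Errfi1 and Sult1a1. The remaining gene, Cdkn1a, which encodes the cell cycle inhibitor p21, shares its cluster on the array with 4930567H12Rik, so no level is given for it.

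The data are levels of hippocampal RNA from 3 control mice and 3 mice with forced swim stress (FSS), each mouse on a 1-colour Mouse Gene ST array of its own. All were male mice of the strain C57BL/6JJmsSlc with no transgene or drug named, 10 to 11 weeks old by the labels. FSS mice swam for 11 min a day on 5 days in succession, whereas control mice had no FSS. For its plot of the FSS experiment, the study drew 3 mice at random from a larger number analyzed by array. Only 3 a group were available here. By the study's schedule, a tail suspension test followed on the day after the last swim and the tissue was taken on the third day after it, so the levels are not those during a swim, and corticosterone was not measured in these mice. Levels are given on the log2 scale of robust multi-array averaging (RMA), on which a difference of 1 is a doubling, and levels of different genes are not compared.

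Corticosterone acts through the glucocorticoid receptor and the mineralocorticoid receptor, both of which are abundant in the hippocampus. On binding the hormone, the receptors enter the nucleus and bind DNA elements near their target genes. The products of these targets include kinases that adjust ion transport and fuel use, transcription regulators that restrain inflammation, and brakes on growth signalling. In rodents, corticosterone also follows a daily rhythm, and many of these genes rise and fall within hours of the hormone.

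In the hippocampus of FSS mice, 8 of the 9 genes had a lower mean level than in control mice, as had 47.0% of all clusters. Of these 8 genes, Errfi1 was level and changed sign with median centring of the arrays. The log2 fold change (FSS minus control) ran from -0.29 for Sult1a1 to 0.015 for Pdk4, with a median of -0.12, against a median of 0.0049 over all clusters tested. The fold change was tested by limma, which moderates the variance of each gene with that of all the others. At an unadjusted p under 0.05, 2 of the 9 genes (Sult1a1 and Map3k6) were lower and 0 were higher, where 2.66% of all clusters were called lower and 2.49% higher. No gene passed after Benjamini-Hochberg adjustment over all clusters, with adjusted p of 0.943 to 1.00 for the 9 genes, and the share of all clusters that passed was 0%. None of the 9 reached the study's thresholds, a log2 fold change over 0.5 in size with an unadjusted p under 0.05, under which 0.0413% of clusters were called lower. The count of 2 rests on single mice, since it was 4 when control mouse 1 was left out, 3 when FSS mouse 3 was, 1 when FSS mouse 2 was, and 0 when any of the remaining mice (controls 2 and 3 and FSS mouse 1) was. Omission of control mouse 1 gave a median of -0.20, and omission of FSS mouse 1 gave -0.052. In tissue RNA, fewer cells that express a gene and less RNA per cell cannot be told apart.

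**Figure D1:**
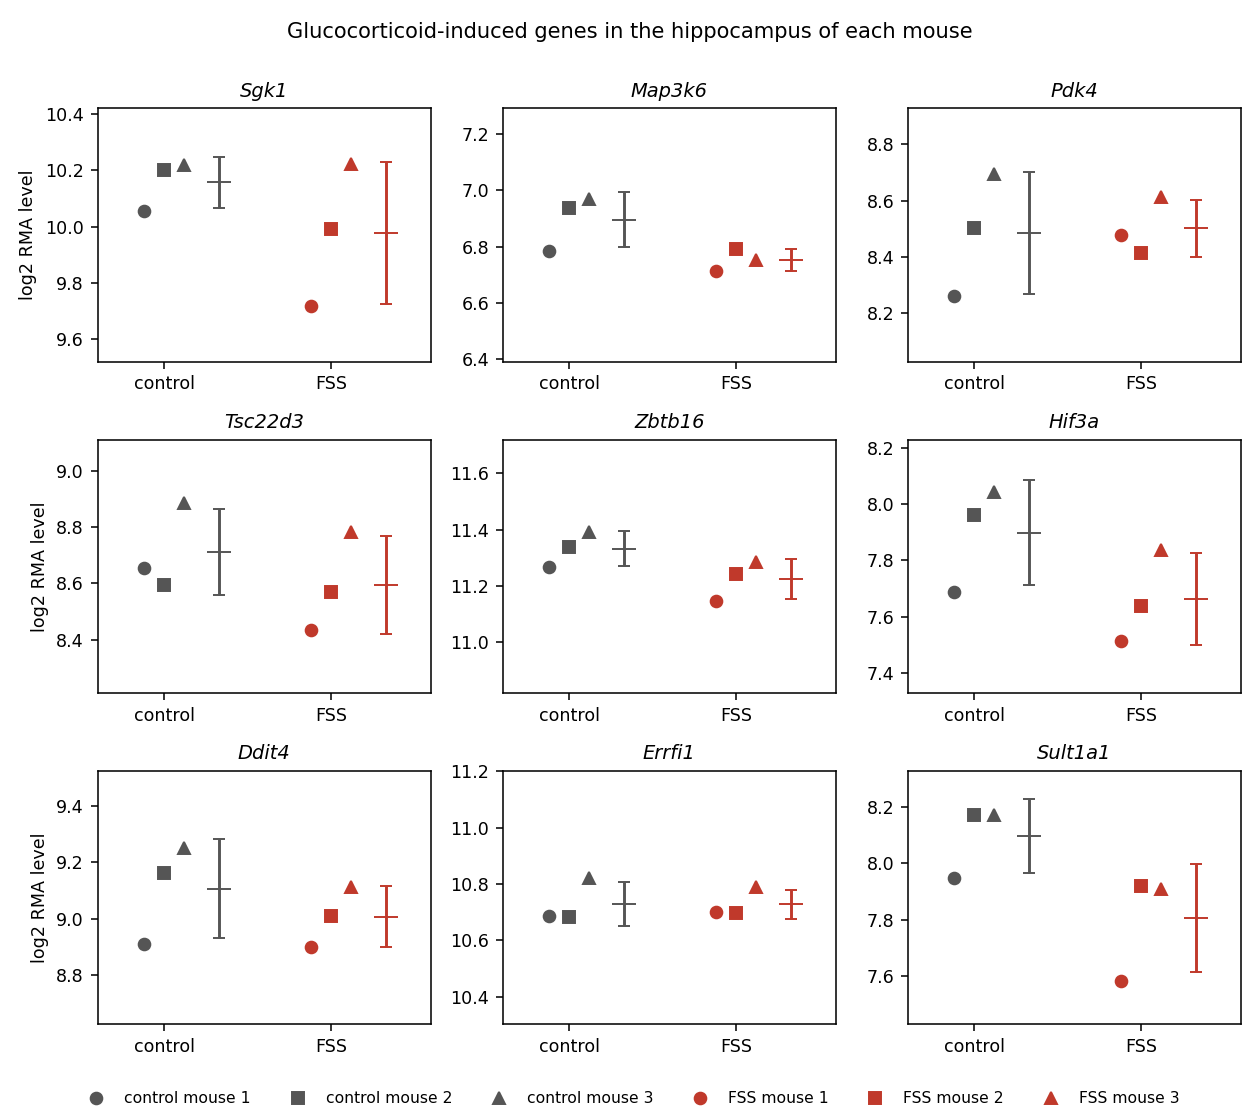
Log2 RMA level (y axis, 0.9 units in every panel) of the 9 measured genes in control and FSS mice (x axis). Each symbol is 1 mouse, with the same shape for the same mouse in all panels, and bars are the mean ± SD of 3 mice. Only for Sult1a1 do all FSS mice lie below all control mice.

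Sult1a1, a cytosolic sulfotransferase that adds sulfate to phenols and related small molecules, had the largest decrease of the group. Its levels were 7.95, 8.17 and 8.17 in control mice 1 to 3 and 7.58, 7.92 and 7.91 in FSS mice 1 to 3. The groups did not overlap, which held for 1 of the 9 genes and for 4.25% of all clusters, but control mouse 1 lay only just above FSS mice 2 and 3, and FSS mouse 1 stood apart below them. The mean was 8.10 ± 0.13 (SD, n = 3) in control mice and 7.80 ± 0.19 (SD, n = 3) in FSS mice, a log2 fold change of -0.29 (standard error 0.11, 95% interval -0.55 to -0.033), or 81.6% of the control level. It passed the unadjusted threshold but not the adjusted one (limma adjusted p = 0.943), and the exact two-sided permutation test gave p = 0.1, the smallest that 3 mice against 3 allow. Of all clusters, 0.624% had a log2 fold change as low. Omission of FSS mouse 1 gave -0.18, and omission of either of the higher control mice gave -0.26, and in these 3 cases it did not pass.

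Among the kinases, Sgk1 is the serum- and glucocorticoid-regulated kinase, which raises the activity of ion channels and transporters. Its levels were 10.05, 10.20 and 10.22 in control mice 1 to 3 and 9.72, 9.99 and 10.22 in FSS mice 1 to 3. FSS mouse 1 was the lowest of the 6, FSS mouse 2 lay below all control mice, and FSS mouse 3 was level with the highest control mouse. The log2 fold change was -0.18 (standard error 0.12, 95% interval -0.48 to 0.11, limma adjusted p = 0.947) and did not pass. Omission of FSS mouse 3 gave -0.30, which passed the unadjusted threshold, and omission of FSS mouse 1 gave -0.052. The spread of Sgk1 within the groups (pooled SD 0.19) was larger than that of 92.9% of clusters, and within FSS mice it came from a range of 0.50 between mice 1 and 3.

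Map3k6 encodes a kinase at the top of stress-activated MAP kinase cascades. Its levels were 6.78, 6.94 and 6.97 in control mice 1 to 3 and 6.71, 6.79 and 6.75 in FSS mice 1 to 3. FSS mice 1 and 3 lay below all control mice, and FSS mouse 2 lay just above control mouse 1. With a log2 fold change of -0.14 (standard error 0.060, 95% interval -0.29 to -0.0018, limma adjusted p = 0.943), Map3k6 passed the unadjusted threshold, at a fold of 90.5% of control. This call was the less stable of the pair: it passed without control mouse 1 (log2 fold change -0.20) but not without any of the 5 other mice (-0.16 to -0.11), nor by the methods' t-test, with another variance model of limma (trend and robust), with array weights, quantile normalization or median centring, with all clusters in the fit or with the spread of the arrays as a block (-0.15 to -0.13).

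Pdk4 is a mitochondrial kinase that switches off pyruvate dehydrogenase and so spares glucose. Control mice 1 to 3 had levels of 8.26, 8.50 and 8.69 and FSS mice 1 to 3 had 8.48, 8.41 and 8.61, so that all FSS mice lay inside the range of the controls. It was the one measured gene of the group with a mean above control, and the log2 fold change of 0.015 (95% interval -0.25 to 0.28, limma adjusted p = 0.996) turned to -0.097 when control mouse 1 was left out and to -0.041 when FSS mouse 3 was.

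Of the transcription regulators, Tsc22d3 encodes the glucocorticoid-induced leucine zipper GILZ, which binds and restrains inflammatory transcription factors and is often used as a readout of the glucocorticoid receptor. Its levels were 8.66, 8.59 and 8.88 in control mice 1 to 3 and 8.44, 8.57 and 8.78 in FSS mice 1 to 3. FSS mice 1 and 2 lay below all control mice, whereas FSS mouse 3 lay above control mice 1 and 2. The log2 fold change of -0.12 (standard error 0.11, 95% interval -0.38 to 0.14, limma adjusted p = 0.971) did not pass with all mice or without any 1 of them (-0.21 to -0.029).

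Zbtb16, which encodes the zinc finger repressor PLZF, had levels of 11.27, 11.34 and 11.39 in control mice 1 to 3 and 11.15, 11.24 and 11.29 in FSS mice 1 to 3. FSS mice 1 and 2 lay below all control mice and FSS mouse 3 lay just above control mouse 1. The mice of a group lay close together (pooled SD 0.067, against a median of 0.078 over all clusters), and the log2 fold change of -0.11 (standard error 0.056, 95% interval -0.24 to 0.026, limma adjusted p = 0.943) did not pass. It kept its sign without each mouse in turn, at -0.14 to -0.069.

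Hif3a encodes an alpha subunit of the hypoxia-inducible factors, of which a short form inhibits the others. It had levels of 7.69, 7.96 and 8.04 in control mice 1 to 3 and 7.51, 7.64 and 7.84 in FSS mice 1 to 3. FSS mice 1 and 2 lay below all control mice, and FSS mouse 3 lay above control mouse 1 only. The log2 fold change of -0.23 (standard error 0.12, 95% interval -0.51 to 0.040, limma adjusted p = 0.943) was the next lowest after that of Sult1a1, at 85.0% of the control level. It did not pass with all mice. The unadjusted threshold was passed when control mouse 1 (-0.34) or FSS mouse 3 (-0.32) was left out.

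The remaining genes restrain growth signals. Ddit4, also named REDD1, inhibits the kinase complex mTORC1 and is induced by glucocorticoids, low oxygen and other stresses. Its levels were 8.91, 9.16 and 9.25 in control mice 1 to 3 and 8.90, 9.01 and 9.11 in FSS mice 1 to 3. Control mouse 1 and FSS mouse 1 were nearly level, and the other FSS mice lay between control mouse 1 and the other controls. The log2 fold change of -0.10 (standard error 0.099, 95% interval -0.33 to 0.14, limma adjusted p = 0.971) did not pass, and was -0.20 without control mouse 1, where it passed the unadjusted threshold, and -0.028 without control mouse 3.

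Errfi1, also named MIG6, is a feedback inhibitor of the epidermal growth factor receptor. Its levels were 10.69, 10.68 and 10.82 in control mice 1 to 3 and 10.70, 10.70 and 10.79 in FSS mice 1 to 3. All FSS mice lay within the range of the controls, the log2 fold change was -0.00090 (95% interval -0.13 to 0.13, limma adjusted p = 1.00), and its sign changed when single mice were left out (-0.031 to 0.044). The interval holds decreases and increases of up to 0.13 on the log2 scale, which is about the size of the median decrease of the group.

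**Figure D2:**
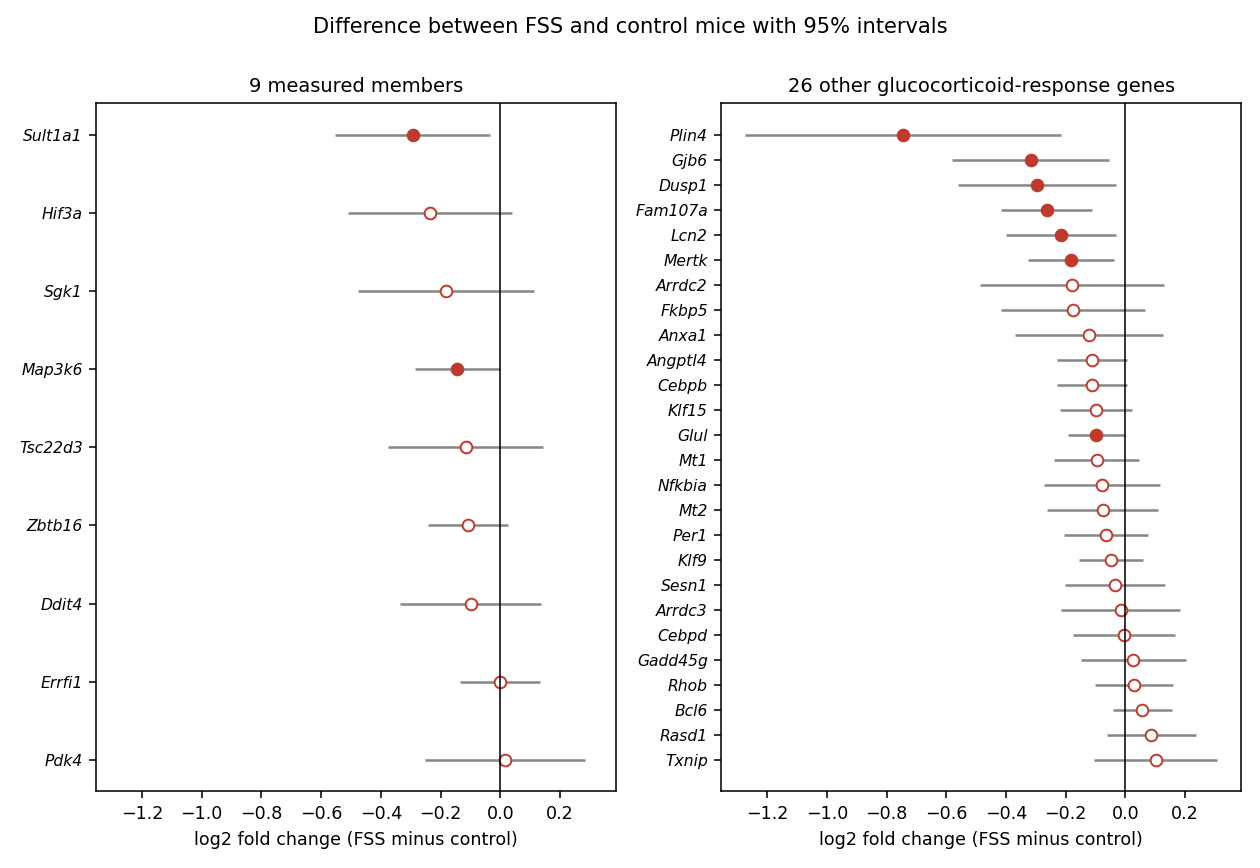
Difference of FSS from control mice on the log2 scale (x axis) for the 9 measured genes (left) and for 26 other glucocorticoid-response genes (right). Circles are estimates from limma, filled where the unadjusted p was under 0.05, and lines are 95% intervals. The values lie from -0.29 to 0.015 on the left and from -0.74 to 0.10 on the right.

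Most of the 9 genes followed the same mice. Within control mice, mouse 3 had the highest level of all 9 genes and mouse 1 had the lowest level of 7, where over all clusters control mouse 3 was the highest of its group in 30.6% and control mouse 1 the lowest in 30.2%. Within FSS mice, mouse 1 had the lowest level of 7 genes and mouse 3 the highest of 7, against 26.2% and 29.5% of all clusters. In that group, FSS mouse 2 was highest for Sult1a1 and Map3k6, the 2 genes called lower, and lowest for Pdk4 and Errfi1. Over all 6 mice, FSS mouse 1 was the lowest for 7 of the 9 genes (13.0% of clusters) and control mouse 3 the highest for 8 (12.3% of clusters). The exceptions in the lowest place were Pdk4, with its minimum in control mouse 1, and Errfi1, with its minimum in control mouse 2. The exception in the highest place was Sgk1, which was highest in FSS mouse 3. These shares describe 6 mice, in which the genes are not independent of each other.

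Averaged over the 9 genes, control mice 1 to 3 differed from the control mean by -0.13, 0.015 and 0.11, and FSS mice 1 to 3 by -0.25, -0.13 and -0.013. FSS mouse 2 was thus level with control mouse 1, and FSS mouse 3 lay above it. The mean over the genes was 0.13 lower in FSS mice, with an SD of 0.12 in each group. For all 9 genes the range within at least 1 of the groups was larger than the difference between the group means, and for 7 of them, all but Sgk1 and Sult1a1, the range within control mice alone was larger.

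**Figure D3:**
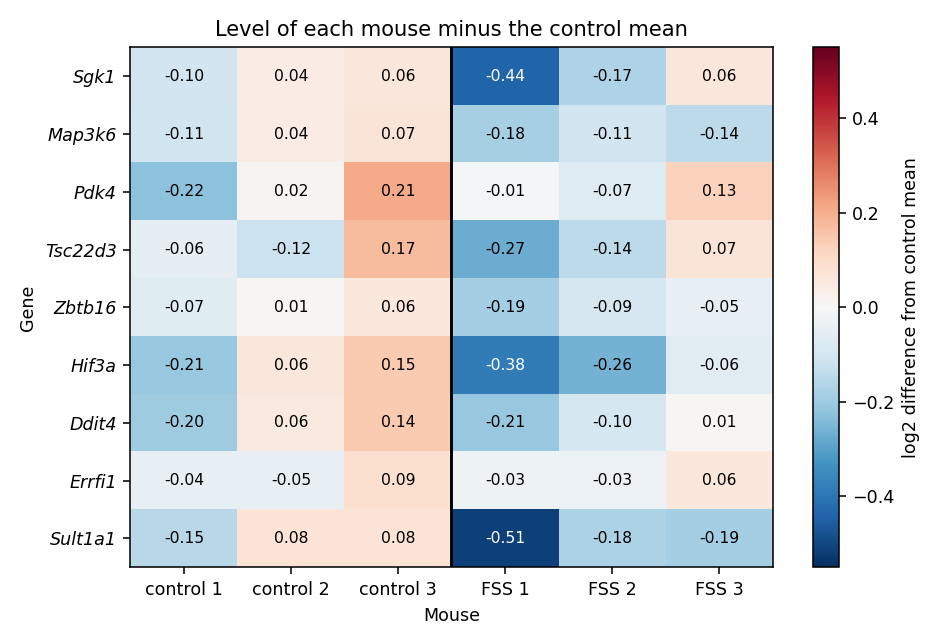
Level of each mouse (columns) minus the mean of the control mice for each of the 9 genes (rows), on the log2 scale, in blue where lower and red where higher. FSS mouse 1 has the lowest values, down to -0.51 for Sult1a1, and control mouse 3 is above the control mean for all 9 genes.

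A list of 26 other genes of the glucocorticoid response, none of them among the 10 above, also lay mostly below 0. All 26 were measured, 21 lay below 0 and 5 above, where 47.0% of all clusters lay below 0, and the median log2 fold change was -0.097. At an unadjusted p under 0.05, 7 were lower (2.66% of all clusters) and 0 were higher (2.49%), and in 9 of the 26 every FSS mouse lay below every control mouse (4.25%). The lower genes were Plin4, a coat protein of lipid droplets (log2 fold change -0.74), the astrocytic connexin gene Gjb6 (-0.32), the MAP kinase phosphatase gene Dusp1 (-0.30), Fam107a, an actin-binding protein induced by stress (-0.26), Lcn2, an iron-carrier-binding protein of inflammation (-0.22), the phagocytic receptor gene Mertk (-0.18) and Glul, which encodes glutamine synthetase (-0.097), each with a limma adjusted p of 0.943. Plin4 and Fam107a passed the unadjusted threshold in all 6 omissions of a single mouse, Gjb6 and Mertk in 3, Dusp1 and Lcn2 in 2, and Glul in 0. Omission of control mouse 2 reduced the difference of Dusp1 to -0.19 and that of Lcn2 to -0.14. The mean level of Lcn2 was low, at the 19.8% point of all clusters, and its presence was not judged. Leaving out control mouse 2 or FSS mouse 1 reduced the count of 7 to 3, and leaving out control mouse 3 reduced it to 4. Plin4 is named in the study's own plot of these arrays, and the list is not independent evidence of the direction.

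The mean of the 26 genes had the same order of mice within each group, although single genes departed from it. Control mouse 1 was the lowest control for 21 of them (30.2% of all clusters) and control mouse 3 the highest for 18 (30.6%). FSS mouse 1 was the lowest FSS mouse for 16 (26.2%) and FSS mouse 3 the highest for 20 (29.5%). It differed from the control mean by -0.082, 0.030 and 0.052 in control mice 1 to 3 and by -0.17, -0.13 and -0.053 in FSS mice 1 to 3.

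Among genes that act before the targets, none passed as lower. Nr3c1, which encodes the glucocorticoid receptor, had levels of 9.30, 9.30 and 9.29 in control mice 1 to 3 and 9.35, 9.30 and 9.38 in FSS mice 1 to 3 (log2 fold change 0.048, standard error 0.042, 95% interval -0.052 to 0.15, limma adjusted p = 0.968). Nr3c2, the gene of the mineralocorticoid receptor, had a mean level higher by 0.12 in FSS mice (standard error 0.085), which did not pass (limma adjusted p = 0.952) except when control mouse 1 was left out (0.20). Hsd11b1, whose enzyme regenerates active corticosterone inside cells, was higher in FSS mice, with levels of 8.78, 8.56 and 8.69 in control mice 1 to 3 and 8.88, 8.88 and 8.91 in FSS mice 1 to 3. Its groups did not overlap, and in 6.02% of all clusters every FSS mouse likewise lay above every control mouse. The difference of 0.21 for Hsd11b1 (standard error 0.062) had a limma adjusted p of 0.943. It passed the unadjusted threshold with all mice and without each of them (0.15 to 0.26). Fkbp5, a cochaperone that dampens the glucocorticoid receptor and, as its target, is also 1 of the 26 genes above, had levels of 8.69, 8.82 and 9.005 in control mice 1 to 3 and 8.56, 8.61 and 8.83 in FSS mice 1 to 3. The difference of -0.18 (standard error 0.10), with a limma adjusted p of 0.943, did not pass in this fit. It passed the unadjusted threshold when FSS mouse 3 was left out (-0.26). Of 9 measured genes of receptors and their chaperones, Hsd11b1 alone was higher and 0 were lower, and at the shares over all clusters (2.49% higher and 2.66% lower) counts of 0 or 1 in so few genes are near the background.

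Several of the 9 genes also belong to other responses, so lists of these were set beside them, each so short that counts of 0 or 1 are near the background of 2.66% lower and 2.49% higher. Of 8 measured targets of p53, 0 were lower and 0 higher (median log2 fold change 0.0045). Of 9 genes induced by fasting, as Pdk4 is, 0 were lower and 0 higher (median -0.025). Of 10 genes induced by low oxygen, as Ddit4 and Hif3a are, the glucose transporter gene Slc2a1 was lower (log2 fold change -0.18, limma adjusted p = 0.943) and Ankrd37 was higher (0.23, limma adjusted p = 0.943), with a median of 0.037. Ankrd37 passed in all 6 omissions of a mouse and Slc2a1 in 1, that of control mouse 1, and without control mouse 3 Slc2a1 was at -0.11. The order of the mice was found in part in these lists, since the mean of the p53 targets was lowest in control mouse 1 and highest in control mouse 3 among controls, and the means of the fasting and low-oxygen lists were lowest in FSS mouse 1 and highest in FSS mouse 3 among FSS mice. The fasting list shares Angptl4, Klf15 and Txnip with the list of 26.

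**Figure D4:**
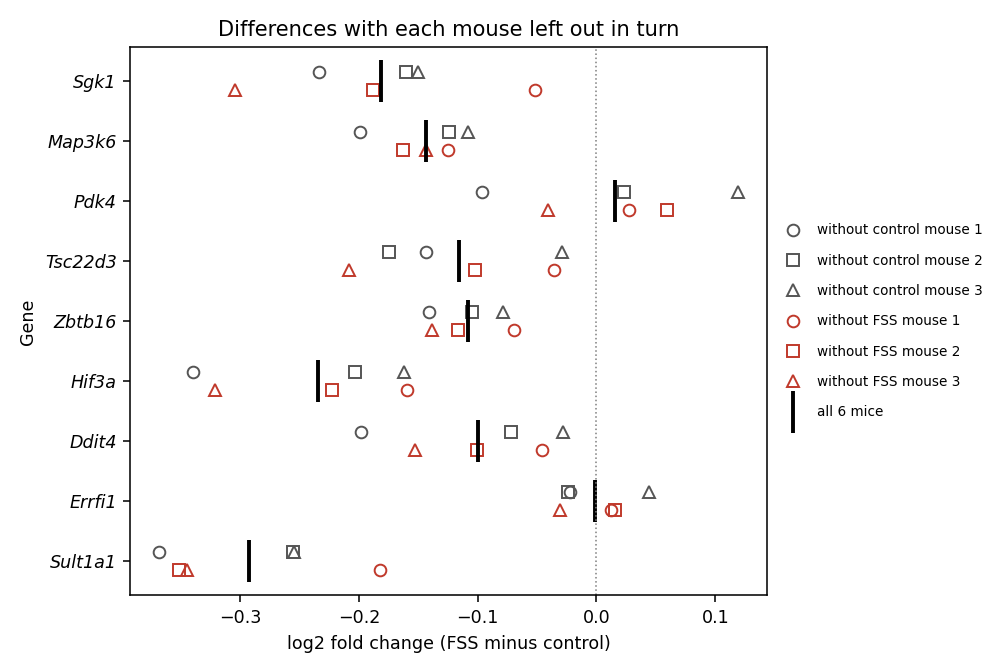
Difference of FSS from control mice on the log2 scale (x axis) for the 9 genes (y axis) with all 6 mice (black bars) and with each mouse left out in turn (open symbols). The value of Sgk1 lies between -0.30 and -0.052 and that of Sult1a1 between -0.37 and -0.18, and Pdk4 and Errfi1 have values on both sides of 0.

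The tissue and its cell types were checked with marker lists. All 10 markers of dentate gyrus and CA fields were measured, with mean levels from 7.48 to 11.21, and Prox1 of granule cells was at 9.88 in control mice and 10.03 in FSS mice. The 10 markers of other brain regions had mean levels from 4.74 to 9.02, and since no background level was available, presence was not judged for any of them. Of 6 genes of blood 1 was measured (Alas2, log2 fold change 0.030, not passed). In the 10 lists of cell types and regions with more than 1 measured gene, the median log2 fold change ran from -0.016 for tissue outside the hippocampus to 0.13 for microglia, and of their 93 entries 2 were lower and 9 higher, against 2.66% and 2.49% of all clusters. The lower ones were the astrocytic genes Fgfr3 (-0.15) and Aldoc (-0.10). The higher ones were Aqp4 (0.33), Gfap (0.16) and Gja1 (0.11) of astrocytes, Trem2 (0.20) and Cx3cr1 (0.17) of microglia, Prox1 (0.15) of granule cells, Acta2 (0.28) of mural cells, Ttr (0.95) of choroid plexus and Lum (0.29) of meninges. All 11 had a limma adjusted p of 0.943. Aqp4 and Trem2 passed the unadjusted threshold in all 6 omissions of a mouse, Prox1, Acta2 and Lum in 5, Ttr in 4, Cx3cr1 in 3, Fgfr3, Gfap and Gja1 in 1 and Aldoc in 0. Ttr was at 0.55 without control mouse 3 and was lost without FSS mouse 1 or FSS mouse 3, and Gfap was at 0.10 without control mouse 2. In none of these 10 lists did the mean have the order of mice seen in the 9 genes, with control mouse 1 lowest and control mouse 3 highest among controls, or with FSS mouse 1 lowest and FSS mouse 3 highest among FSS mice. The mean of oligodendrocyte markers, for instance, differed from the control mean by 0.18 in FSS mouse 1 and by -0.22 in FSS mouse 2. The mean of microglial markers was higher in the 3 FSS mice (0.068 to 0.13) than in all control mice (at most 0.052). For astrocyte markers this held clearly for FSS mice 1 (0.082) and 3 (0.046) only. FSS mouse 2 (0.031) was level with the highest control mouse (0.030). The part of cell types in the levels of the 9 genes was not tested.

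The 6 arrays had median levels of 7.32 to 7.35 over all clusters, but the values of control mouse 3, FSS mouse 1 and FSS mouse 3 were more widely spread (SD 2.26 to 2.27) than those of the other arrays (SD 2.22 to 2.23). Within the arrays of narrower spread, 7 of the 9 genes were lower in the FSS mouse than in the mean of the 2 control mice, with a median difference of -0.061. Within those of wider spread, all 9 were lower in the 2 FSS mice than in the 1 control mouse, with a median difference of -0.24. That control was mouse 3, the highest control mouse for all 9 genes, so this difference cannot be told apart from the position of that mouse. Likewise, the narrower arrays were those of control mice 1 and 2 and FSS mouse 2. Of these, control mouse 1 was the lowest control mouse for 7 of the 9 genes. Sult1a1 differed by -0.14 and -0.43 and Hif3a by -0.19 and -0.37 in these comparisons, respectively, which are values with no test. With the spread as a block, 0 of the 9 genes passed the unadjusted threshold, while the median was -0.15 and Sult1a1 was at -0.28.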

How the data were processed

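Each of 6 Affymetrix Mouse Gene ST arrays was hybridized with hippocampal RNA of a single mouse (3 control, 3 FSS). Log2 levels were deposited by the authors, who made them from the CEL files by RMA in Affymetrix Expression Console (version not given in the labels). RMA corrects background, equalizes the distributions of the arrays and combines the probes of a transcript cluster, so uniform shifts between arrays are removed and low levels are compressed. The amount of RNA and the labeling kit are given differently in the labels and in the paper. Arrays hold no read depth, and their number limits the precision.

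Of 28944 clusters, 21789 carry 1 gene symbol in the array annotation, 1621 several and 5534 are unnamed here. By gene ID, 21698 of the 21789 were matched to RefSeq genes, which changed 0 symbols. Where a symbol has several clusters, the one with the highest mean stands for it. No coordinates or sequences were used here, so the planned search of promoters for receptor motifs was not run.

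The difference of FSS from control mice was estimated by limma 3.58.1 (lmFit and eBayes, two-sided, no covariate) in R 4.3.3 over the 21789 clusters, with Benjamini-Hochberg adjustment over all of them. An unadjusted p under 0.05 counts as passed. The step was tested on simulated data, of which no result is given here. The members and lists were chosen with earlier results of these data known. All members are named, as are Nr3c1, Nr3c2, Hsd11b1 and Fkbp5 and the list genes that passed. Alternatives were the methods' t-test (Student's test with the variance of each gene alone), another variance model, array weights, quantile normalization, median centring, a filter on dim genes, all clusters in the fit, the mean of the clusters of a symbol, a block by replicate number, and omission of 1 array at a time. A block by array spread was chosen after seeing the data.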

Additional observations from a re-analysis of the deposited data

How the results depend on the processing

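By the methods' t-test, 8 of all clusters passed the study's thresholds (3 higher and 5 lower), and 0 passed after Benjamini-Hochberg adjustment. These are fewer than the study reported for its arrays. The tests here left out the clusters with several gene symbols and the unnamed clusters. Whether the study left these out is not known, so the counts may not cover the same clusters. For unpaired data the study's methods name Student's t-test and the Mann-Whitney U-test, without saying which served for the arrays. The number of the 9 genes called lower, 2 with limma, was 0 by that t-test. It was 3 (Zbtb16, Sult1a1 and Hif3a) with a trended, robust variance, 1 (Sult1a1) with array weights, quantile normalization, median centring, all clusters in the fit or without dim genes, where Map3k6 was not tested, 0 in a fit blocked by array spread, and 0 to 4 when single mice were left out. With the replicate number as a block it was 4 (Zbtb16, Sult1a1, Hif3a and Map3k6), and Fkbp5 passed too. The labels number the mice of each group. Deviations from the group mean correlated at -0.048, 0.14 and 0.24 between same-numbered mice 1 to 3. Between mice of unlike number the correlations ran from -0.26 to 0.13. Control mice 2 and 3 correlated best with the FSS mouse of their own number, and control mouse 1 did not. The mean of the 9 genes was lowest in mouse 1 and highest in mouse 3 of both groups. Whether the numbers mark pairs is not known, and the main fit does not use them. The number of other glucocorticoid-response genes called lower, 7, was 4 by the methods' t-test and 3 to 6 when single mice were left out. It was 8 with a trended, robust variance or the replicate number as a block, and 5 to 7 in the other alternatives. In every alternative 0 of the 9 genes and 0 of the 26 were called higher. The median of the 9 genes stayed below 0 throughout, from -0.20 to -0.052. Signs turned for Pdk4 when array spread was a block (-0.059) and without single mice (-0.097 to 0.12), and for Errfi1 with array weights (0.013), median centring (0.0021) and without single mice (-0.031 to 0.044). The cause was not tested. Over the 9 genes, 110 of the single-gene values kept their sign and side of the threshold, 17 no longer passed, 8 newly passed and 8 changed sign.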
